A study of Mus musculus with 12 samples.

Results

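The 10 genes described here make up the core of MHC class I antigen processing, namely H2-K1, H2-D1, B2m, Tap1, Tap2, Tapbp, Psmb8, Psmb9, Psmb10 and Nlrc5. They were chosen by symbol for their textbook role in the pathway, with earlier results of these data known. The genes listed numbered 57010, of which 15425 had enough counts to be tested. All 10 passed that filter, the lowest count of any of them in any library being 186. They were measured by RNA-seq of preosteoclasts from LSD1WT and LSD1cKO mice, and the question was how the genotype, the skeletal site and the ligature bore on their transcripts.

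LSD1 (Kdm1a) is a histone demethylase, and in LSD1cKO mice its floxed gene is deleted by a LysM-driven Cre, which acts in myeloid cells. Marrow of female mice aged 2 months was flushed, grown for 2 days under M-CSF and RANKL and sequenced as polyA RNA. LSD1WT and LSD1cKO were each represented by 3 cultures with 2 libraries, which were mandible marrow of mice that carried a tooth ligature for 7 days, femur marrow of ligated mice and femur marrow of mice with no ligature. Of the 9 mice named, 3 (1 LSD1WT and 2 LSD1cKO) were sampled at both sites. Replicate numbers follow the labels and run 1 and 2 in each pair except mandible LSD1WT, where they are 1 and 3.

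Class I molecules show peptides from the inside of the cell to CD8 T cells. Proteins are cut by the proteasome, whose constitutive catalytic subunits can be replaced by inducible ones to form the immunoproteasome, and the peptides are pumped into the endoplasmic reticulum by the TAP1 and TAP2 transporter. There tapasin (Tapbp) helps to load them onto a heavy chain (H2-K1 or H2-D1) paired with beta-2-microglobulin (B2m), and NLRC5 is a transactivator of the class I genes. Many of these genes respond to interferons, and myeloid cells such as macrophages express them without stimulation.

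Total counts were 21375805 to 32526751 per library, and values are given in CPM, counts scaled to library size with the TMM method. Kdm1a was at 61.2 to 71.3 CPM in the LSD1WT libraries and 15.6 to 24.3 CPM in the LSD1cKO libraries, with no overlap. Femur LSD1WT replicate 2 stood apart in both femur cultures. The summed level of 10 osteoclast markers was 168 CPM there in the ligated and 238 CPM in the unligated culture, against 11544 to 40906 CPM in the other 10 libraries, so that the labelled cell type was nearly without its defining markers in these 2 libraries. Their 8 macrophage markers summed to 7604 and 6277 CPM, against 1717 to 4374 CPM elsewhere. Mandible LSD1WT replicates 1 and 3 were nearly alike, with a biological coefficient of variation of 0.0246 against 0.0965 to 0.716 in the other pairs, and replicate 3 carries a title that says mandible and a library name that says femur. It was analysed under its title. Values without femur LSD1WT replicate 2 are given where a result rests on it. In bulk RNA, fewer cells of a type and less RNA per cell cannot be told apart, and with nothing stated on separate cultures, p values measure only the spread between these samples.

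The promoters of the heavy chains and of B2m are shown because they hold an element in common. RefSeq promoter entries (GRCm38.p6, not the build the counts were made on) were found for 8 of the 10 genes, and not for Tap2 and Nlrc5. The 200 bases before the annotated start are printed for the 3 genes and for Psmb8. Coordinates are chr17:34000348-34000547 on the minus strand for H2-K1 (the first of 2 entries), chr17:35262894-35263093 on the plus strand for H2-D1, chr2:122147487-122147686 on the plus strand for B2m and chr17:34197995-34198194 on the plus strand for Psmb8. In capitals are TGACG and ATTGG (the reverse complement of CCAAT) where their first bases lie 25 bases apart, the kappaB-type motif GGGANTNCC, the ISRE-type motif GAAANNGAA and the GAS-type motif TTCNNNGAA.
H2-K1: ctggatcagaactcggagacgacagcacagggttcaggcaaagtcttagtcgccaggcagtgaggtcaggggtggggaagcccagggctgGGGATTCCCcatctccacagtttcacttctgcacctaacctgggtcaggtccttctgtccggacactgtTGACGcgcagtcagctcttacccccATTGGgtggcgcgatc
H2-D1: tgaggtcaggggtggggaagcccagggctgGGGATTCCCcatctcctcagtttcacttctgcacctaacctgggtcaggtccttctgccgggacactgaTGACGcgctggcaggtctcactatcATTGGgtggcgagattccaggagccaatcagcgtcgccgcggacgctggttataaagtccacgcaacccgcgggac
B2m: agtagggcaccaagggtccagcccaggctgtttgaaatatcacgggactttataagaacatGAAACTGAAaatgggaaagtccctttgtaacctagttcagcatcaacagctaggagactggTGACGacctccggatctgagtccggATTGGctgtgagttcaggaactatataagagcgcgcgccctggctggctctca
Psmb8: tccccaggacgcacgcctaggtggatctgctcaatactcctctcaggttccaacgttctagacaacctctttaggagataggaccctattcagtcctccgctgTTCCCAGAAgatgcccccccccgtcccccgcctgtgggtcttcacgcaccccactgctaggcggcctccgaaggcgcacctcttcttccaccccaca

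TGACG alone was found, on either strand, in 15.7% of 32851 promoter windows of this length, and CCAAT in 29.3%. The 2 in this order and at this distance were found in H2-K1 (starting 41 bases before the start), H2-D1 (101 bases) and B2m (78 bases), and on either strand in 0.0822% of all windows. The distance was chosen after these windows had been read. On the gene's own strand it occurred in 13 genes in all, among them H2-M3, another class I heavy chain. Such a pair resembles the X2 and Y boxes of the class I promoter module through which NLRC5 is known to act. GGGANTNCC, searched on both strands, was found in H2-K1 and H2-D1 and in 2.72% of all windows, GAAANNGAA in B2m and in 5.57%, and TTCNNNGAA in Psmb8 and in 5.49%. Tap1 and Psmb9 start 226 bases apart on opposite strands, so their windows overlap. Only these exact patterns were searched, so other forms of such elements would have been missed. A match is a description of letters and not of a bound site.

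**Figure D1:**
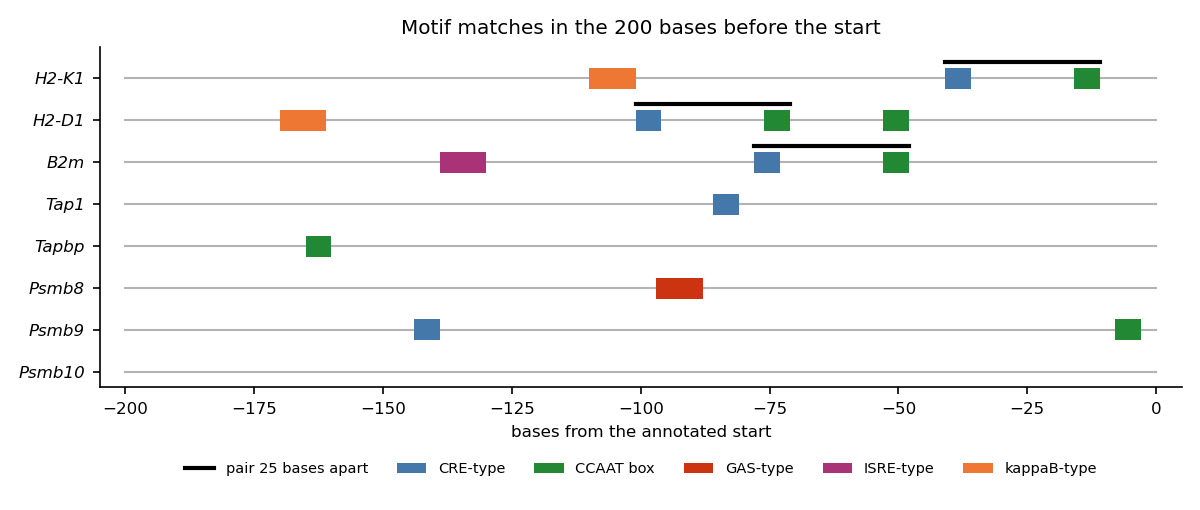
Matches to 5 motifs in the 200 bases before the annotated start of the 8 members with a RefSeq entry, on an axis in bases from the start. The black line marks the pair 25 bases apart in H2-K1, H2-D1 and B2m, and Psmb10 has no match.

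The genes differed widely in level. Per kilobase of exon, B2m had the highest median over the 12 libraries, at 1101 CPM per kilobase, followed by H2-D1 at 365 and H2-K1 at 166. Tapbp was at 61.9, Psmb8 at 43.4, Psmb10 at 33.4 and Tap2 at 32.5 CPM per kilobase. Tap1 was at 15.5, Psmb9 at 12.8 and Nlrc5 at 3.05 CPM per kilobase. The ranges of neighbours in this order overlapped for every pair. Nlrc5 had the widest range, 12.3-fold in CPM, while the others ranged between 3.17-fold and 5.10-fold. Together the 10 genes made up 1650 CPM in the lowest library (mandible LSD1WT replicate 1) and 5567 CPM in the highest (ligated femur LSD1cKO replicate 2).

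Over the 3 cultures, 6 of the 10 genes rose in LSD1cKO, and the estimate was above 0 for all 10. The 6 were Nlrc5, Psmb8, Psmb9, Tapbp, H2-K1 and Tap1, with increases of 1.67-fold to 2.83-fold. B2m, Tap2, H2-D1 and Psmb10 did not pass the test. edgeR's quasi-likelihood test with culture and genotype as terms called 544 of all genes (3.53%) at an adjusted p under 0.05, 462 of them (3.00%) higher in LSD1cKO. It treated libraries of the same mouse as independent, the 6 per genotype coming from 5 LSD1WT and 4 LSD1cKO mice. The median log2 fold change was 0.77 over the members and -0.06 over all genes tested. The same 6 genes had both LSD1cKO libraries above both LSD1WT libraries in each of the 3 cultures, as did 5.17% of all genes. In none of the 10 was every LSD1cKO library above every LSD1WT library across cultures, against 1.98% of all genes. The summed osteoclast markers were at 11544 to 29103 CPM in LSD1cKO and, leaving out femur replicate 2, at 26090 to 40906 CPM in LSD1WT, and their part in these differences was not tested.

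The count of 6 depended on which libraries were used. It was 8 without both femur LSD1WT replicate 2 libraries (where 3867 genes were called) and 3 with the mandible LSD1WT libraries summed into 1. It was 2 with mandible LSD1WT replicate 3 taken as femur, and 0 of 22 calls in the 8 femur libraries alone. With the replicate number as a block it was 3 (403 genes in all). Different mice share that number, and only mandible LSD1WT replicate 3 carries the number 3. With the mouse as a random block in limma voom it was 4 (382 genes in all), and H2-K1 and Tap1 were not among them. It was also 3 without mandible LSD1WT replicate 1, mandible LSD1WT replicate 3, mandible LSD1cKO replicate 2 or ligated femur LSD1cKO replicate 2. Nlrc5, Psmb8 and Tapbp were called with each of the 12 libraries left out in turn, whereas H2-K1 was called in 8, Psmb9 in 6 and Tap1 in 3 of these fits.

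**Figure D2:**
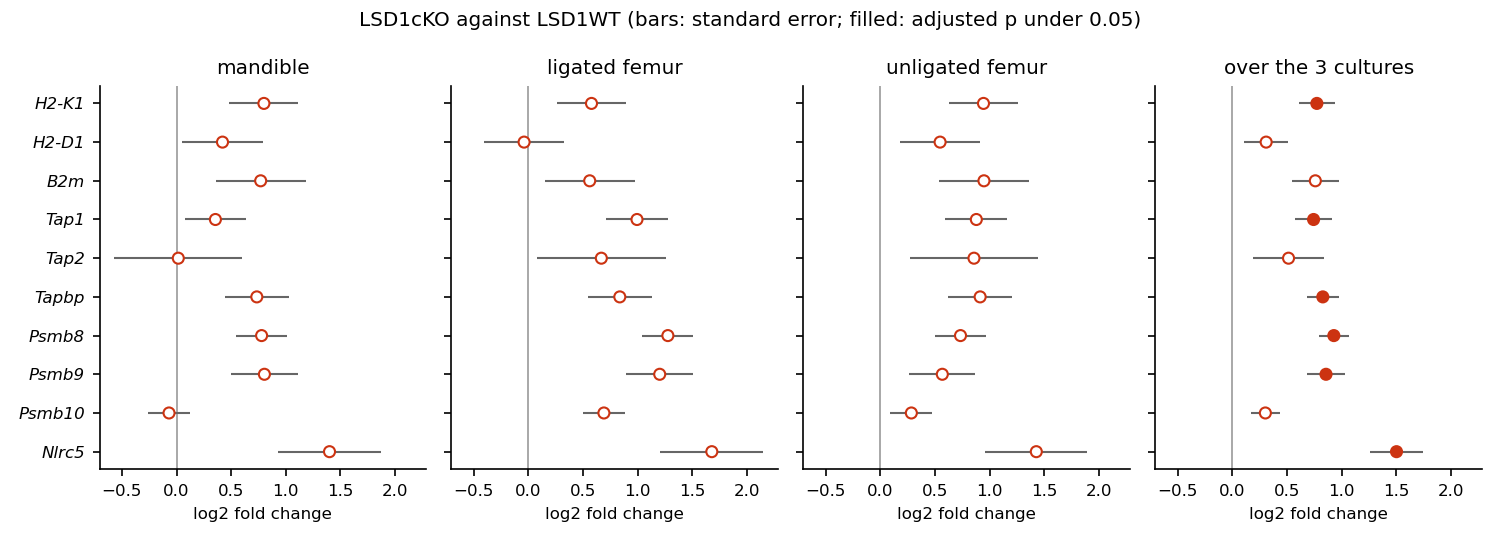
Log2 fold change of LSD1cKO against LSD1WT for the 10 members (points) with its standard error (bars), in each culture (2 libraries per genotype) and over the 3 cultures (6 per genotype), filled where the adjusted p was under 0.05. All filled points lie in the panel over the 3 cultures, at 0.74 to 1.50.

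H2-K1, a classical class I heavy chain, stood at 226 and 236 CPM in mandible LSD1WT against 318 and 487 CPM in LSD1cKO. Ligated femur levels were 409.8 and 693 CPM against 811 and 834 CPM, and unligated femur levels were 389.5 and 487 CPM against 879.7 and 805 CPM. LSD1cKO was above LSD1WT with no overlap in each culture. Over the cultures the log2 fold change was 0.77 (SE 0.17, adjusted p = 0.030, edgeR quasi-likelihood test, n = 6 libraries per genotype). The call was lost in 9 of 23 alternative fits, among them the replicate number as a block (0.76, adjusted p = 0.052, same test). It was also lost, at an adjusted p of up to 0.072, without mandible LSD1WT replicate 1 or 3, mandible LSD1cKO replicate 2 or ligated femur LSD1cKO replicate 2.

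H2-D1, the other classical heavy chain measured here, differed less. It was at 548 and 552 CPM in mandible LSD1WT against 609.7 and 863 CPM in LSD1cKO, and in the unligated femur at 846 and 1000.4 CPM against 1450.4 and 1245 CPM. In the ligated femur the groups overlapped, because LSD1WT replicate 2 was the highest library of all at 1897 CPM and replicate 1 was at 884 CPM, with LSD1cKO at 1379.9 and 1325 CPM between them. The log2 fold change over the cultures was 0.31 (SE 0.20, adjusted p = 0.51, edgeR quasi-likelihood test). Without both femur LSD1WT replicate 2 libraries it was 0.59 (adjusted p = 0.0067). In the ligated femur alone the estimate was -0.04 (SE 0.37), and its sign turned under every alternative but 1. Reads of H2-K1 and H2-D1 can match both genes and other class I copies, so their split is uncertain.

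B2m, the light chain shared by all class I molecules, was at 444 and 446 CPM in mandible LSD1WT and 634 and 884 CPM in LSD1cKO. Unligated femur levels were 813 and 1011 CPM against 1468 and 2049 CPM. The ligated femur libraries overlapped, with LSD1WT at 738 and 1726 CPM and LSD1cKO at 1646 and 1989 CPM, the second LSD1WT library being femur replicate 2. Its log2 fold change of 0.76 (SE 0.21) was close to that of H2-K1 but did not pass over the cultures (adjusted p = 0.093, edgeR quasi-likelihood test). It passed without ligated femur LSD1WT replicate 2 (0.97, adjusted p = 0.011), without both femur LSD1WT replicate 2 libraries (1.06, adjusted p = 0.0011) and in DESeq2 (0.77, adjusted p = 0.0083).

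**Figure D3:**
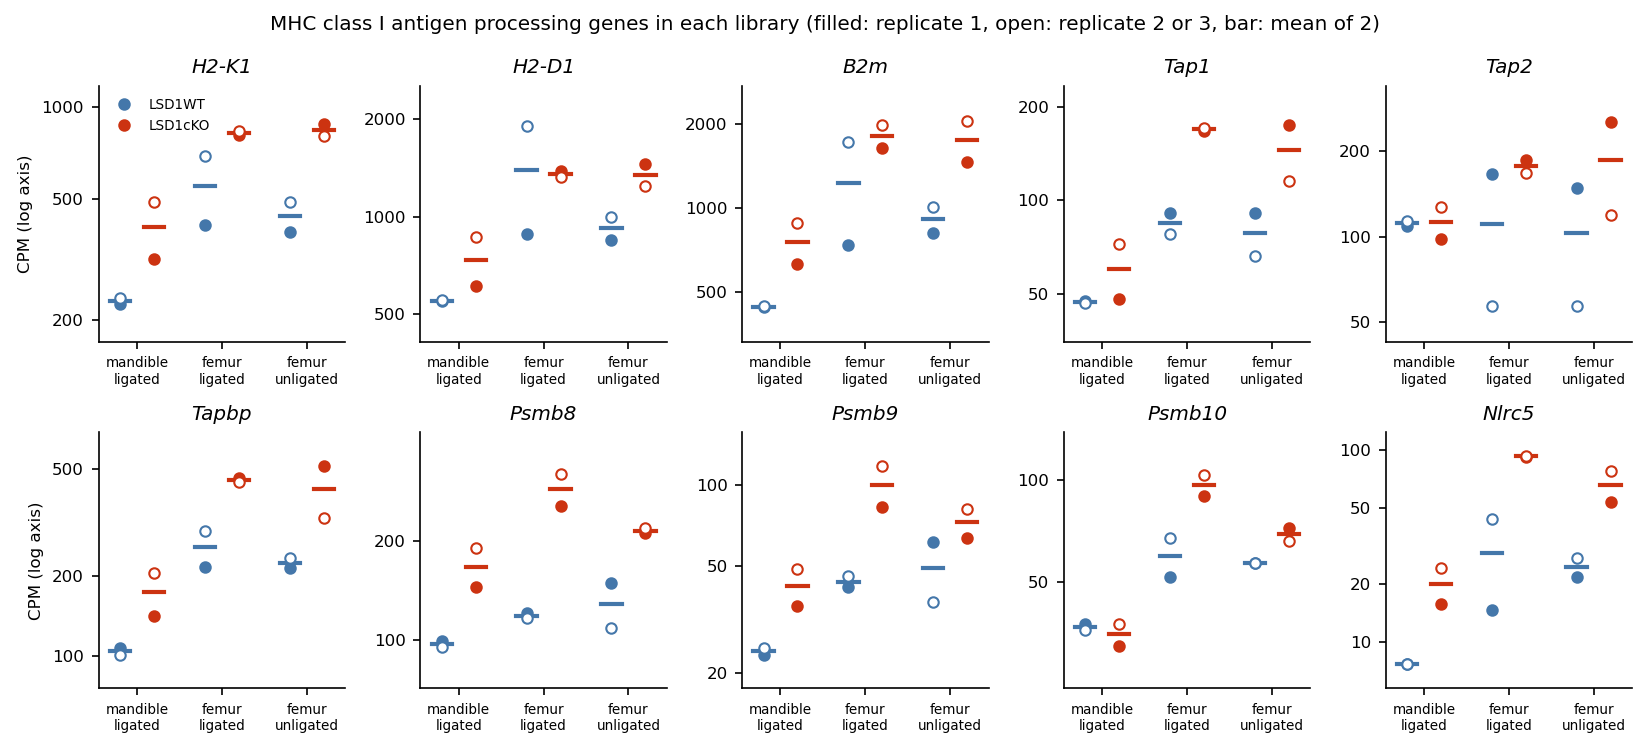
CPM of each of the 10 members on a log axis in the 12 libraries, by culture and genotype, with replicate 1 filled, replicates 2 and 3 open and a bar at the mean of 2. Mandible libraries are the lowest for most genes, and Tap2 falls to 57.0 and 57.1 CPM in femur LSD1WT replicate 2, where H2-D1 and B2m are above replicate 1.

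Tap1 and Tap2 encode the partner chains of the peptide transporter, and the ratio of their transcripts varied between libraries. Tap1 was at 47.5 and 46.9 CPM in mandible LSD1WT and 48.3 and 72.6 CPM in LSD1cKO. The ligated femur gave 91.5 and 78.3 CPM against 167 and 171 CPM, the unligated femur 91.4 and 66.4 CPM against 175 and 115 CPM. LSD1cKO was above LSD1WT in each culture, by a narrow gap in the mandible. Over the cultures Tap1 rose by 0.74 on the log2 scale (SE 0.17, adjusted p = 0.038, edgeR quasi-likelihood test). This call was lost in 14 of 23 alternative fits, among them the replicate block (0.82, adjusted p = 0.053, same test). Of the 12 fits with 1 library left out, it held in 3, those without mandible LSD1cKO replicate 1, unligated femur LSD1WT replicate 1 or unligated femur LSD1cKO replicate 2, and the adjusted p reached 0.099 in the other 9.

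Tap2 was at 109 and 113 CPM in mandible LSD1WT and 97.8 and 127 CPM in LSD1cKO. Ligated femur LSD1WT had 165 and 57.0 CPM and LSD1cKO 186 and 167 CPM. Unligated femur levels were 149 and 57.1 CPM against 253 and 119 CPM. The lowest values of all 12 were those of femur LSD1WT replicate 2, the libraries with few osteoclast marker transcripts, whose part in this was not tested. The groups overlapped in the mandible and in the unligated femur. Over the cultures the log2 fold change was 0.51 (SE 0.33, adjusted p = 0.50, edgeR quasi-likelihood test). Without both femur LSD1WT replicate 2 libraries it was 0.17 (adjusted p = 0.56), and with 1 library left out it ran from 0.35 without unligated femur LSD1cKO replicate 1 to 0.75 without ligated femur LSD1WT replicate 1. Per exon length, the Tap1 to Tap2 ratio was 0.286 to 0.394 in the mandible, 0.382 and 0.425 in femur LSD1WT replicate 1, 0.949 and 0.804 in femur LSD1WT replicate 2 and 0.476 to 0.705 in the femur LSD1cKO libraries. Tap1 shares 212 bases of exon with Psmb9 on the opposite strand (GENCODE vM21), and whether counting used the strand is not given in the sources used here.

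Tapbp, which encodes the peptide loading chaperone tapasin, was at 107 and 101 CPM in mandible LSD1WT and 141 and 205 CPM in LSD1cKO. The ligated femur had 215.8 and 294 CPM against 463 and 447 CPM, and the unligated femur 214 and 234 CPM against 515 and 327 CPM. The groups did not overlap in any culture. Tapbp rose by 0.83 on the log2 scale (SE 0.15, adjusted p = 0.013, edgeR quasi-likelihood test), and this call was lost with mandible LSD1WT replicate 3 taken as femur (1.02, adjusted p = 0.065) and in the 8 femur libraries alone (0.87, adjusted p = 0.21). It shares 149 bases of exon with Zbtb22 on the same strand, so that reads there could count for either gene.

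The inducible proteasome subunits were led by Psmb8, which takes the place of Psmb5. Psmb8 was at 99.5 and 95.3 CPM in mandible LSD1WT and 144 and 189.7 CPM in LSD1cKO. Ligated femur levels were 120.5 and 117 CPM against 255 and 319 CPM, and unligated femur levels 149 and 109 CPM against 211 and 218 CPM. No culture showed an overlap, and femur LSD1WT replicate 2 was close to replicate 1 in the ligated femur. Psmb8 rose by 0.93 on the log2 scale over the cultures (SE 0.14, adjusted p = 0.0061, edgeR quasi-likelihood test), and the call was lost in the 8 femur libraries alone (1.00, adjusted p = 0.15). Where a log2 fold change of at least 1 was asked for as well, it was lost too, as it was for each of the 6 called genes except Nlrc5.

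Psmb9, which takes the place of Psmb6, was at 23.3 and 24.7 CPM in mandible LSD1WT and 35.4 and 48.4 CPM in LSD1cKO. Ligated femur LSD1WT had 41.6 and 45.6 CPM and LSD1cKO 83.0 and 117 CPM. In the unligated femur the LSD1WT libraries were at 61.4 and 36.5 CPM and the LSD1cKO libraries at 63.4 and 81.5 CPM, a gap of little width. Psmb9 rose by 0.86 on the log2 scale (SE 0.18, adjusted p = 0.025, edgeR quasi-likelihood test). The call was lost in 10 of 23 alternative fits, among them the replicate block (0.85, adjusted p = 0.078, same test). It was also lost, at an adjusted p of up to 0.066, without mandible LSD1WT replicate 1 or 3, mandible LSD1cKO replicate 2, ligated femur LSD1cKO replicate 1 or 2, or unligated femur LSD1cKO replicate 2.

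Psmb10, which takes the place of Psmb7, had the smallest estimate of the inducible subunits. It was at 37.7 and 36.1 CPM in mandible LSD1WT and 32.6 and 37.8 CPM in LSD1cKO, and these overlapped. Ligated femur levels were 52.0 and 67.6 CPM against 89.8 and 103 CPM and unligated femur levels 57.0 and 56.8 CPM against 72.3 and 66.1 CPM, without overlap in either. Over the cultures the log2 fold change was 0.30 (SE 0.14, adjusted p = 0.31, edgeR quasi-likelihood test).

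The constitutive partners did not pass the test with genotype. Psmb5, Psmb6 and Psmb7 had log2 fold changes over the cultures of 0.09 (SE 0.20), -0.015 (SE 0.17) and 0.01 (SE 0.22). The log2 ratio of Psmb8 to Psmb5 was 0.78 higher in LSD1cKO (mean 0.98 ± 0.58, SD, against 0.21 ± 0.74, n = 6 per genotype over the 3 cultures), and that of Psmb9 to Psmb6 was 0.87 higher (-1.56 ± 0.65 against -2.43 ± 0.79). Each had p = 0.00926 in a two-sided exact permutation test within cultures, the smallest that this test allows, and 0.0139 after adjustment over 3 pairs. That test treats the mandible and femur libraries of the 3 shared mice as independent. With genotype permuted over whole mice, an alternative chosen after seeing the data, each had an exact p of 0.0556, the smallest that its 18 arrangements allow, so that no call could be made at 0.05. The ratio of Psmb10 to Psmb7 was 0.23 higher (p = 0.519, exact permutation test). Without ligated femur LSD1cKO replicate 2 the adjusted p of the first 2 ratios was 0.0556 in this exact test. Without both femur LSD1WT replicate 2 libraries, in which Psmb7 was at 96.8 and 121 CPM against 165 CPM or more elsewhere, the third ratio was 0.65 higher with an adjusted exact p of 0.037. Per exon length, the inducible subunits made up 12.1% of the transcripts of the 6 catalytic subunits in the lowest library (mandible LSD1WT replicate 3) and 38.1% in the highest (ligated femur LSD1cKO replicate 2). Those libraries differ in site as well as genotype. Mandible LSD1cKO was at 16.7% and 21.4%, and ligated femur LSD1WT at 20.3% in replicate 1 and 35.5% in replicate 2.

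**Figure D4:**
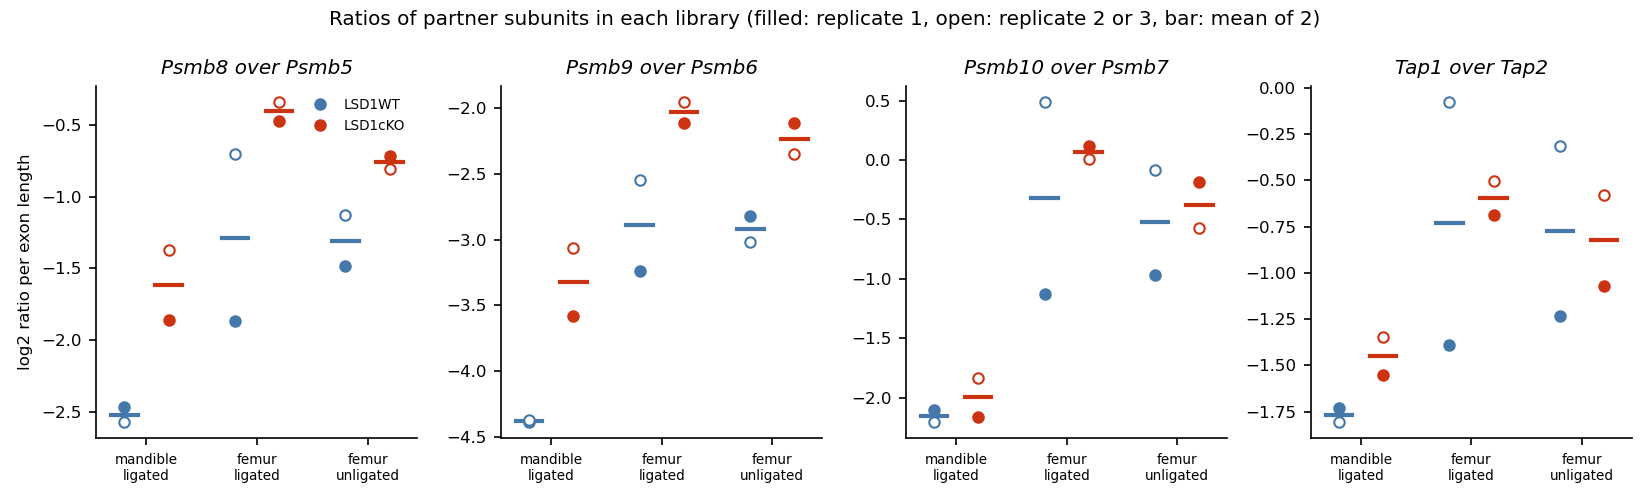
Log2 ratios per exon length of each inducible proteasome subunit to its constitutive partner and of Tap1 to Tap2, in the 12 libraries by culture and genotype, with replicate 1 filled, replicates 2 and 3 open and a bar at the mean of 2. The ratios of Psmb8 and Psmb9 are higher in LSD1cKO with no overlap in each culture, whereas those of Psmb10 and Tap1 overlap in the femur, where LSD1WT replicate 2 is the highest library for both in each femur culture.

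Nlrc5, the regulator, had the lowest level and the largest change of the 10. It was at 7.59 and 7.60 CPM in mandible LSD1WT and 15.7 and 24.4 CPM in LSD1cKO. Ligated femur levels were 14.6 and 43.7 CPM against 92.9 and 93.2 CPM, and unligated femur levels 21.7 and 27.5 CPM against 53.8 and 78.4 CPM. The groups did not overlap in any culture, and the LSD1cKO mean was 2.64 times the LSD1WT mean in the mandible, 3.20 times in the ligated and 2.69 times in the unligated femur. The ligated femur value rested on LSD1WT libraries that were far apart, and its log2 fold change of 1.68 was 2.67 without LSD1WT replicate 2, 1.18 without LSD1WT replicate 1 and 2.76 without femur LSD1WT replicate 2 in both cultures. Nlrc5 rose by 1.50 on the log2 scale (SE 0.25, adjusted p = 0.0087, edgeR quasi-likelihood test), and among the alternatives run this call was lost only in the 8 femur libraries (1.55, adjusted p = 0.17).

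Within single cultures none of the 10 passed the adjusted test, with 2 libraries per genotype. In the mandible edgeR called 0% of all genes. At an unadjusted p under 0.05, 5 of 10 were higher (H2-K1, Tapbp, Psmb8, Psmb9 and Nlrc5), as were 3.81% of all genes, and 8 of 10 were higher without overlap, as were 34.1% of all genes. In the ligated femur 1 gene was called (0.00648%). There 6 of 10 were higher at an unadjusted p under 0.05 (3.91% of all genes) and 8 without overlap (14.8%), Psmb8 having the smallest adjusted p of the 10 at 0.16 (log2 fold change 1.28, SE 0.23). In the unligated femur 0% of genes were called, 6 of 10 were higher at an unadjusted p under 0.05 (3.61%) and 9 without overlap (9.82%). The medians of the 10 were 0.75, 0.76 and 0.87 on the log2 scale in the mandible, the ligated and the unligated femur, against 0.00, -0.12 and -0.05 over all genes. DESeq2 called none of the 10 in the mandible or the unligated femur and 4 in the ligated femur (217 genes in all), and limma voom none in any culture. Without both femur LSD1WT replicate 2 libraries edgeR called 2, 6 and 1 of the 10 in the 3 cultures, where it called 936, 1497 and 396 genes in all.

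The size of the genotype effect was not shown to differ between cultures. In edgeR's interaction test of mandible against ligated femur, 0 of the 10 passed (0% of all genes), 1 passed at an unadjusted p under 0.05 (0.966% of all genes), and DESeq2 called 0 of the 10. That gene was Psmb10, whose effect was 0.76 smaller in the mandible on the log2 scale (SE 0.27, adjusted p = 1.0). Between ligated and unligated femur, 0 passed after adjustment (0% of all genes), 0 at an unadjusted p under 0.05 (0.344% of all genes) and 0 in DESeq2. Standard errors of these differences were 0.27 to 0.83 on the log2 scale, against genotype effects of at most 1.68 in these cultures. limma voom called 0 of the 10 in both.

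Levels in the mandible were below those in the ligated femur for nearly all members in both genotypes. Site comparisons were not repeated with mandible LSD1WT replicate 3, whose library name says femur, taken as femur. In LSD1WT the median log2 difference of the 10 was -1.06, against -0.03 over all genes, and in LSD1cKO it was -1.26 against 0.00. Nlrc5 showed the largest difference, at -1.94 (SE 0.48) in LSD1WT and -2.21 (SE 0.48) in LSD1cKO, and Tap2 the smallest in both, at 0.00 (SE 0.59) and -0.65 (SE 0.59). Without overlap, 9 of 10 were lower in LSD1WT (31.5% of all genes) and 10 of 10 in LSD1cKO (35.0%). At an unadjusted p under 0.05 these counts were 8 (14.7%) and 9 (6.81%), and after adjustment edgeR called none of the 10 in either genotype (0% of all genes), the smallest adjusted p being 0.082, for Psmb10 in LSD1cKO (log2 difference -1.45, SE 0.19). DESeq2 called 6 of 10 in LSD1WT (1190 genes in all) and 8 in LSD1cKO (810 genes), and limma voom with the mouse as a block, which takes account of mice sampled at both sites, called none. Without ligated femur LSD1WT replicate 1, edgeR called 6 in LSD1WT (3759 genes in all) and 4 in LSD1cKO (688 genes). In LSD1cKO it called 4 without ligated femur LSD1WT replicate 2 (664 genes) and 1 without unligated femur LSD1WT replicate 1 (123 genes) or replicate 2 (126 genes). Without both femur LSD1WT replicate 2 libraries it called 0 in LSD1WT (144 genes) and 9 in LSD1cKO (3466 genes). Lyz2, a myeloid gene, moved the same way, at 1232 to 1592 CPM in the mandible libraries and 3089 CPM or more in the femur libraries, and its part in the site difference was not tested.

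The ligature left the members' levels in the femur without a detected difference. In LSD1WT 0 of 10 were higher after adjustment (0% of all genes) or at an unadjusted p under 0.05 (0.454%), with log2 differences of -0.17 to 0.59. In LSD1cKO 0 passed after adjustment (0%) and 1 at an unadjusted p under 0.05 (0.499%). That gene was again Psmb10, at 0.48 on the log2 scale (SE 0.19, adjusted p = 1.0, edgeR quasi-likelihood test). DESeq2 and limma voom called none of the 10 in either genotype.

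Around the core, edgeR's calls were found among the other class I heavy chains and the regulators, and not among the chaperones or the other proteasome genes. Of 20 listed heavy chains, 14 were tested and 4 rose over the cultures, with none lower, and their median log2 fold change was 1.09. DESeq2 called 6 of them and limma voom 3. H2-Q7, a Qa-region gene, went from 0.304 ± 0.106 CPM (SD, n = 6 libraries) to 3.63 ± 1.40 CPM, a log2 fold change of 3.54 (SE 0.36, adjusted p = 9.2e-04, edgeR quasi-likelihood test). H2-Q5, H2-Q6 and H2-T24 had log2 fold changes of 2.54, 3.30 and 1.68, and H2-Q4 had 1.37 with an adjusted p of 0.070. The Q and T region genes are near copies of one another, so that reads may have been split among them, and H2-Q6 held at most 24 counts.

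Chaperones and peptide-trimming enzymes gave 0 calls of 10 in edgeR, DESeq2 and limma voom, with 1 (Tapbpl) at an unadjusted p under 0.05 and a median of -0.04. Erap1, the aminopeptidase that trims peptides in the endoplasmic reticulum, had a log2 fold change of 0.33 (SE 0.23), and Tpp2, a cytosolic peptidase, one of -0.27 (SE 0.14). The constitutive core of the proteasome gave 0 calls of 14 with each of the 3 tools and 0 at an unadjusted p under 0.05, with a median of 0.04 and its largest estimate at 0.18, for Psma7. Proteasome activators and assembly factors gave 0 calls of 8 in edgeR, 2 at an unadjusted p under 0.05, 2 in DESeq2 and 0 in limma voom, with a median of -0.02. Psme2 and Psme1, the chains of the PA28 activator, had the largest values there, at 0.90 (SE 0.23, adjusted p = 0.061) and 0.51 (SE 0.13, adjusted p = 0.074, edgeR quasi-likelihood test). Both were higher in LSD1cKO without overlap in each of the 3 cultures, as were 5.17% of all genes.

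The listed regulators of class I transcription had a median log2 fold change of -0.03. Of the 27 tested, 12 had an estimate above 0, and none was called lower. At an unadjusted p under 0.05 in edgeR, 8 were higher and 0 lower. DESeq2 called 5 of them higher and limma voom 1. Socs1, a feedback inhibitor of cytokine signalling, rose by 1.17 on the log2 scale (SE 0.23, adjusted p = 0.020, edgeR quasi-likelihood test). Ciita, the class II transactivator and a relative of Nlrc5, was at 1.22 (SE 0.36, adjusted p = 0.11), Irf9 at 0.87 (SE 0.36, adjusted p = 0.26) and Stat2 at 0.85 (SE 0.37, adjusted p = 0.29). None of the 10 interferon ligand genes listed had enough counts to be tested. Ifng had 0 counts in every library, which allows up to 0.154 CPM in the shallowest, and Ifnb1 had 0 to 6 counts.

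**Figure D5:**
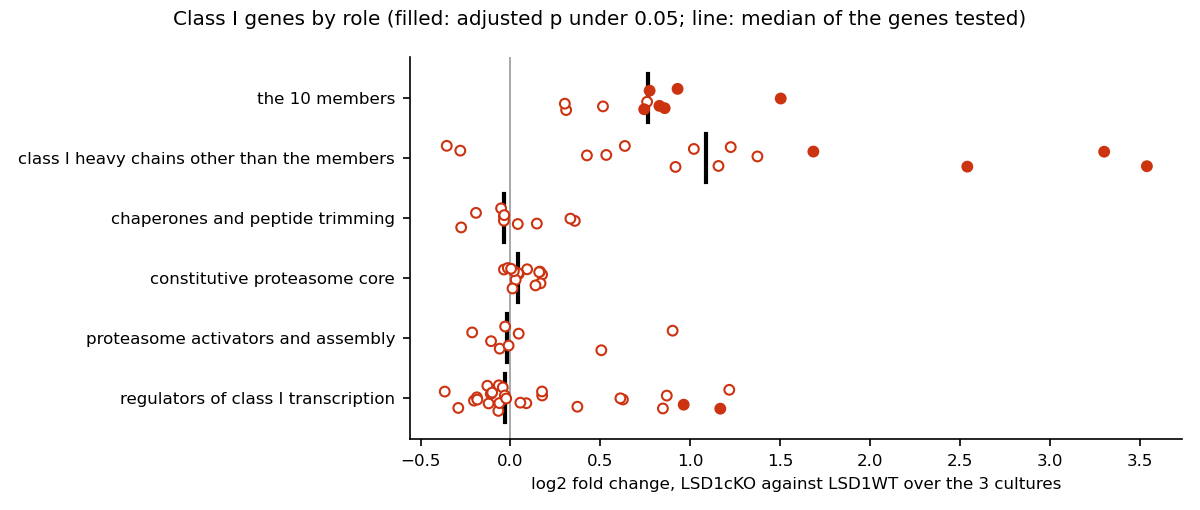
Log2 fold change of LSD1cKO against LSD1WT over the 3 cultures for each gene tested in 6 groups of class I genes, with filled points at an adjusted p under 0.05 and a line at each median. The medians lie at 0.77 for the 10 members and 1.09 for the other heavy chains and between -0.04 and 0.04 for the other 4 groups, where filled points lie only among the regulators.

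Among the genes tested, the profiles nearest to the mean standardised profile of the 10 members over the 12 libraries were those of Gbp6, Isg15, Samd9l, Tgtp2 and Phf11a, followed by Ifi44, Gbp2, Usp18, Ifi209 and Epsti1. Their root mean square differences from it were 0.152 to 0.199 standard deviations. The nearest member was Tapbp at 0.197 and the farthest was Tap2 at 0.983, which ranked 2878 among the genes tested. These 12 points share libraries, genotype and site.

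Among the markers of other cell types, 1 passed the test with genotype over the cultures. It was Kdr, an endothelial receptor of the stromal and endothelial list, at a log2 fold change of 2.22 (SE 0.38, adjusted p = 0.011, edgeR quasi-likelihood test). The 8 stromal and endothelial markers summed to 43.2 and 43.6 CPM in mandible LSD1WT against 11.95 and 9.49 CPM in LSD1cKO, to 7.92 and 30.8 CPM against 45.0 and 46.9 CPM in the ligated femur and to 17.98 and 8.53 CPM against 40.7 and 19.1 CPM in the unligated femur. The sum was thus lower in LSD1cKO in the mandible and higher in the femur, with no overlap in any culture. It joined genes with estimates of opposite sign, and the list's median log2 fold change over the cultures was -0.22. Kdr alone reached 44.1 CPM in its highest library and Col1a1 28.5 CPM. Col1a1 and Col1a2 had log2 fold changes of -2.61 (SE 1.23) and -2.38 (SE 1.26), without passing the test. Of 8 T and NK cell markers, 7 stayed under 1 CPM in every library and Cd3e, Cd3d, Cd3g and Cd8a held 0 to 2 counts. The 8 B cell markers summed to 223 and 113 CPM in femur LSD1WT replicate 2, mostly as Ighm, and to 8.99 to 47.9 CPM elsewhere. The 8 dendritic cell markers summed to 6.96 to 14.7 CPM in LSD1WT and 9.82 to 21.2 CPM in LSD1cKO. The 8 mast cell markers summed to 0.663 to 4.73 CPM in LSD1WT and 5.02 to 9.39 CPM in LSD1cKO, without overlap. Of these 8, 6 stayed under 1 CPM in every library, so that the sum was mostly Gata2 and Kit. These reached 6.68 and 4.45 CPM, and neither passed the test (adjusted p = 0.31 and 0.32, edgeR quasi-likelihood test). Erythroid markers summed to 3.54 CPM or less in every library. The part of such cells in the members' levels was not tested.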

How the data were processed

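RNA-seq counts were taken as the authors deposited them, whole-number read counts for 57010 Ensembl mouse genes in 12 libraries, with no normalization. The submitters' processing notes name HISAT2 2.1.0, FastQC, featureCounts, edgeR and GRCm39, with no further settings, and the strand and multi-mapping settings of the counting are not given in the sources used here. Samples were grouped by their titles. The series' design text and the study's methods differ on the age of the mice, and the former was used.

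In R 4.3.3, edgeR 4.0.16 kept 15425 genes (filterByExpr) and scaled libraries by TMM. A quasi-likelihood model of 6 conditions gave the contrasts within cultures, between sites and between ligature states and the interactions, and culture plus genotype gave the effect over the 3 cultures. Adjustment followed Benjamini and Hochberg over all genes tested, at a threshold of 0.05. Log2 CPM used a prior count of 2. Ratios of proteasome subunits were compared by exact permutation. Exon lengths and overlaps came from GENCODE vM21 by Ensembl identifier, and promoters from RefSeq (GRCm38.p6). The limit set by a count of 0 is 3 counts and covers counting error only.

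The members and lists were chosen with earlier results of these data known. Named were the 10 members, their constitutive partners, Kdm1a, Lyz2, up to 5 genes per list (called genes first, then the largest changes) and the 10 nearest profiles. H2-M3, Zbtb22 and single cell type markers were named after their values were seen. A gene of the regulator list is not reported here. Alternatives were other scalings and filters, DESeq2 1.42.0, limma 3.58.1 (voom), each library left out, a replicate block and, for the ratios, permutation of whole mice. The pairing comes from the labels, by which LSD1cKO mice 1 and 2 gave both sites, although their deviations correlated at 0.026 between the sites. The models were tested on simulated data.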

Additional observations from a re-analysis of the deposited data

How the results depend on the processing

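Over the 3 cultures, 3 to 6 of the 10 genes were called with 1 library left out. The count was 1 where a log2 fold change of at least 1 was asked for as well, 3 with the mandible LSD1WT libraries summed into 1, 2 with mandible LSD1WT replicate 3 as ligated femur and 0 in the 8 femur libraries alone. All genes called were 544 in the reported analysis, 1248 in DESeq2, 3867 without both femur LSD1WT replicate 2 libraries and 22 in the 8 femur libraries. The members' median there stayed between 0.76 and 0.95. With the replicate number as a block, 3 of the 10 were called over the 3 cultures, and the estimate for H2-D1 in the ligated femur was 0.021. With the mouse as a random block in limma voom, 4 of the 10 were called over the 3 cultures.

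Within cultures, leaving out both femur LSD1WT replicate 2 libraries gave 2 calls in the mandible and 6 and 1 in the ligated and unligated femur. The 4 mandible libraries alone gave 7 (of 5434 genes called), and DESeq2 gave 4 in the ligated femur (of 217). The ligated femur median was 1.13 without those replicate 2 libraries and 1.11 with mandible LSD1WT replicate 3 as ligated femur. Over 23 alternatives it ran from 0.80 to 1.13, so the reported 0.76 lay below all of them. Between sites, LSD1WT gave 2 calls with no filter (of 821), 6 in DESeq2 (of 1190) and 0 to 6 with 1 library left out (of up to 3759). LSD1cKO gave 3 with no filter (of 329), 8 in DESeq2 (of 810), 0 to 4 with 1 library left out (of up to 688) and 9 without both replicate 2 libraries (of 3466).

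The sign turned for 3 single-gene estimates near 0 and for 1 ratio. H2-D1 in the ligated femur (-0.04 as reported) was 0.0078 with RLE scaling and in DESeq2, 0.032 with upper-quartile scaling, 0.034 with the filter at a mean of 10 counts, 0.0021 with no filter, 0.0022 in the 4 libraries alone, 0.048 with the mandible LSD1WT libraries summed, 0.064 in limma voom with the mouse as a block, 0.36 with mandible LSD1WT replicate 3 as femur, 0.70 without both replicate 2 libraries and -0.40 to 0.61 with 1 library left out. Tap2 in the mandible was -0.16 in limma voom with the mouse as a block and -0.17 to 0.21 with 1 library left out. Psmb10 in the mandible was 0.0011 with no filter and -0.16 to 0.048 with 1 library left out. The difference in log2 ratio with 1 library left out was 0.58 to 0.97 for Psmb8 over Psmb5, 0.75 to 0.98 for Psmb9 over Psmb6 and -0.039 to 0.50 for Psmb10 over Psmb7, the last being 0.65 without both replicate 2 libraries. With genotype permuted over whole mice the differences of 0.78 and 0.87 had an adjusted exact p of 0.0833. The members' median also changed sign for the interaction of ligated against unligated femur (0.02 as reported, -0.094 at the lowest) and for the ligature in LSD1WT (0.15 as reported, -0.12 at the lowest). Beyond fewer samples where libraries were left out, the cause was not tested. The replicate block changed the counts of members called in no other comparison. The members had 186 counts or more in every library.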
